A study of Mus musculus with 10 samples.

Results

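The immunoglobulin heavy-chain variable (Ighv) genes were examined in 10 RNA-seq libraries of hematopoietic stem and progenitor cells from mouse bone marrow. The EGF group (5 libraries) came from irradiated mice given epidermal growth factor under the skin, and the Saline group (5 libraries) from irradiated mice given saline in the same way. All mice were of the strain C57BL/6 and 16 weeks old, and all had received 500 cGy of total body radiation 6 weeks earlier, so that no group was unirradiated. The labels name no sort gate. They also leave unstated whether the 5 libraries of a group were 5 mice, and p-values therefore reflect only how far these libraries vary, which may be technical.

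Members were the rows of the count files of type IG_V_gene with a symbol beginning with Ighv that had a count of 1 or more in at least 1 library. The rule kept 94 of 111 such rows, out of 55573 rows in the count files. The members were thus chosen by their counts in these same libraries, and quantities taken over them are given as descriptions with no test. At the edge of the rule, 3 members (Ighv1-23, Ighv1-34 and Ighv8-11) had a single count in all 10 libraries together. The 17 rows left out, among them Ighv1-16, Ighv1-20 and Ighv1-24, had 0 counts in every library.

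A functional heavy-chain V gene is joined to a diversity and a joining gene by V(D)J recombination in developing B cells, and each B cell or plasma cell clone then transcribes mainly 1 such joined gene. Plasma cells, the antibody-secreting end stage of the lineage, carry very large amounts of these transcripts, and many reside in the bone marrow. The first number in a symbol gives the family, whose members resemble each other in sequence. A count on a V gene does not tell a joined gene from an unrearranged one, and in bulk RNA fewer cells of a type cannot be told apart from less RNA per cell.

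The genes lie on the minus strand of mouse chromosome 12 (GRCm38), between positions 113578504 and 116000461. They share much of their sequence. Across the members, the V exon was a median of 95.4% identical to that of the nearest other Ighv gene, and 2 members with few counts, Ighv1-62-2 and Ighv1-71, had identical V exons. How reads that match several genes were counted is not given in the sources used here, so values of close relatives are uncertain where reads could be split between them. The last 240 bases of the V exon are printed here for 3 genes on which the results turn, each beside its nearest relative, because the few differing bases are what assigns a read. The sequences are those of the GENCODE M21 transcripts (GRCm38, minus strand), and capitals mark the bases that differ within a pair.

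Ighv11-2, at chr12:114048241-114048480, was the leading gene of most libraries. It differed from Ighv11-1, at chr12:113981879-113982118, at 4 of 307 bases of the V exon, 2 of them in this stretch.
Ighv11-2: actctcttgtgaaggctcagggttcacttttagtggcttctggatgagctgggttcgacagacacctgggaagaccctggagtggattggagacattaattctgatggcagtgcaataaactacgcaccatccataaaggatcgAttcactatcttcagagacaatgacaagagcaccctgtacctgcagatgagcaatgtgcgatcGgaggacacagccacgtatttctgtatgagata
Ighv11-1: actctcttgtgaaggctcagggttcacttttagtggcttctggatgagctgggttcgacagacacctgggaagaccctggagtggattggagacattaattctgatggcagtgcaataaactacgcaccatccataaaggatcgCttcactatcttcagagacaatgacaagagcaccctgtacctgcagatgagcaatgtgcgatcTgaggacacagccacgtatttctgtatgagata

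Ighv1-75, at chr12:115833950-115834189, had the smallest edgeR p-value among the 51 members that passed its filter. It differed from Ighv1-84, at chr12:115980702-115980941, at 12 of 305 bases of the V exon, 10 of them in this stretch.
Ighv1-75: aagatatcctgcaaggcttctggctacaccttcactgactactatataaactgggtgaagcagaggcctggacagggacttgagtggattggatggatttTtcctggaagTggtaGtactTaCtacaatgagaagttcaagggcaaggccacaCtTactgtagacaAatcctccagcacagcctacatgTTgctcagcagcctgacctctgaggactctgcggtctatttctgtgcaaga
Ighv1-84: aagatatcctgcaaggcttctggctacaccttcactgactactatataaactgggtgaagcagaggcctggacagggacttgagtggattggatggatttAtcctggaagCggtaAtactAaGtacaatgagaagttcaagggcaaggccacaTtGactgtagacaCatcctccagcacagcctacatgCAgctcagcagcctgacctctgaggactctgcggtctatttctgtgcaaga

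Ighv5-4, at chr12:113597446-113597685, led in EGF replicate 3 only. It differed from Ighv5-6, at chr12:113625506-113625745, at 14 of 307 bases of the V exon, 12 of them in this stretch.
Ighv5-4: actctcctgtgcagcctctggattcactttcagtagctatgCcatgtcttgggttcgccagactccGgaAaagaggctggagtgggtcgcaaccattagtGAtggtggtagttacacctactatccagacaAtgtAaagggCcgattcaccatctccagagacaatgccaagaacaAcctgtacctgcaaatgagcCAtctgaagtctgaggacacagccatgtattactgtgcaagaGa
Ighv5-6: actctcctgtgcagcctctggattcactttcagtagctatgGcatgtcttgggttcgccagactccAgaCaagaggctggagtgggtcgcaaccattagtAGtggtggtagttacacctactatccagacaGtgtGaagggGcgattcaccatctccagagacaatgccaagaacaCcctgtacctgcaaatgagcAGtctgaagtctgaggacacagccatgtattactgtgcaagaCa

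In spite of these close relatives, counts were distributed unequally within the pairs. Ighv11-2 had 26315 counts over the 10 libraries, and Ighv11-1 had 32. Ighv5-4 had 3561 counts, and Ighv5-6 had 594. Ighv1-75 had 326 counts, and Ighv1-84 had 107, all of them in EGF replicate 2. Of all 50-base stretches of the transcript, 61.4% of those of Ighv11-2, 57.1% of those of Ighv1-75 and 80.1% of those of Ighv5-4 occurred in no other Ighv sequence.

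Library totals lay between 6805106 and 8370820 counts. Between 18734 and 20046 genes had a count in 9 libraries, and 12731 genes did in EGF replicate 5, which stands apart; the main summary values are given with and without it. The Ighv genes together took 10629, 5695, 13011, 6712 and 7746 counts in EGF replicates 1 to 5. In Saline replicates 1 to 5 they took 22199, 13058, 9175, 12914 and 9151 counts. As counts per 1e6 counts of the library (CPM), the sum was 1357, 711, 1912, 828 and 995 CPM in the EGF libraries, and 2871, 1722, 1096, 1677 and 1200 CPM in the Saline libraries. The means were 1161 ± 486 CPM in the EGF libraries and 1713 ± 705 CPM in the Saline libraries (SD, n = 5 each). The EGF mean minus the Saline mean was -553 CPM, more than 1 SD of the EGF libraries and less than 1 SD of the Saline libraries. The groups overlapped, since EGF replicate 3 lay above 4 of the 5 Saline libraries. Without EGF replicate 5 the EGF mean was 1202 ± 550 CPM (SD, n = 4). The difference of the means depended on Saline replicate 1, the highest library, and was -263 CPM without it. With any other 1 library left out it stayed between -741 and -440 CPM.

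The number of Ighv genes with a count was 65, 61, 54, 42 and 36 in the EGF libraries, and 58, 64, 49, 72 and 52 in the Saline libraries. The means were 51.6 ± 12.3 genes with EGF and 59.0 ± 9.27 genes with Saline (SD, n = 5 each), and 55.5 ± 10.1 genes (SD, n = 4) with EGF without replicate 5. EGF replicates 4 and 5 held the fewest genes of all 10 libraries and Saline replicate 4 the most. Ighv totals differ between libraries, so the expected number of genes was also computed for 5695 counts, the smallest Ighv total. It was 63.2, 61.0, 49.1, 41.8 and 34.7 genes in the EGF libraries and 53.0, 57.5, 47.9, 68.3 and 51.3 genes in the Saline libraries. The order of the extremes was the same at equal depth, and the groups still overlapped. With a count of 10 or more required, 54, 47, 40, 34 and 30 genes remained with EGF, and 48, 45, 44, 61 and 44 genes with Saline.

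**Figure D1:**
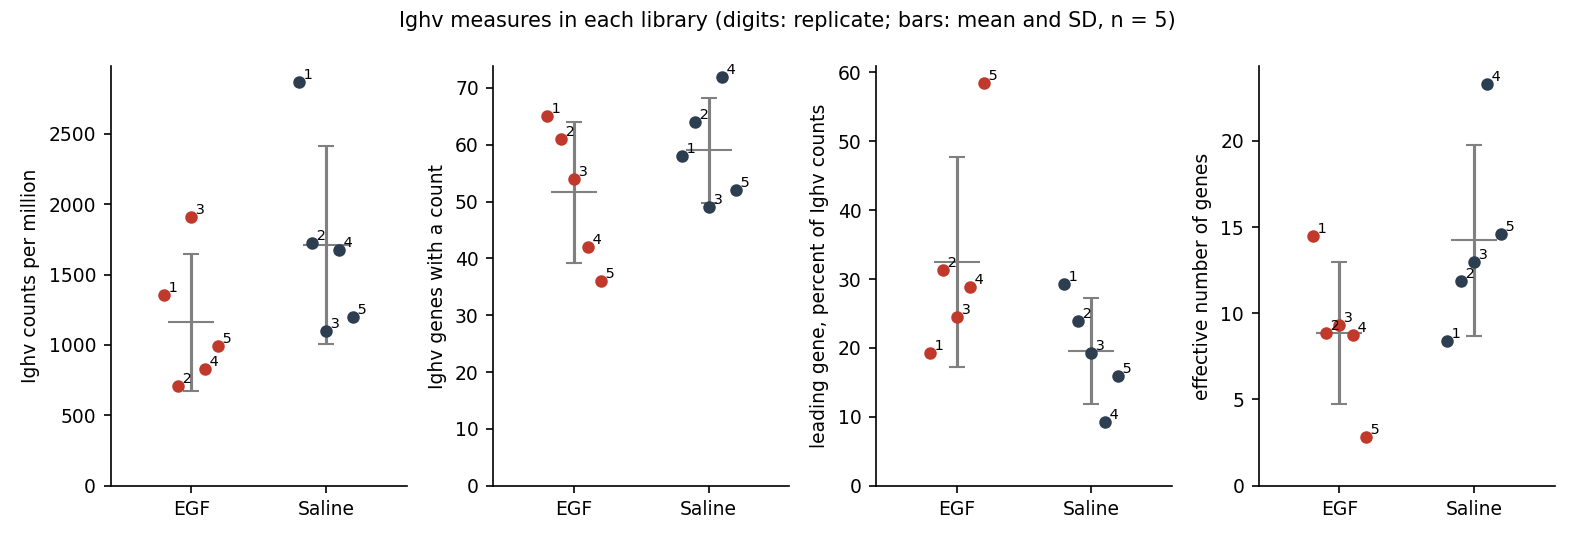
Each point is 1 library, with its replicate number beside it; EGF libraries are red and Saline libraries dark blue, and grey bars give the mean and SD (n = 5). From left to right, the vertical axes give the summed Ighv CPM, the number of Ighv genes with a count, the percentage of Ighv counts on the leading gene and the effective number of genes. The groups overlap in all 4 panels, and EGF replicate 5 has the highest leading share (58.4%) and the lowest effective number (2.82).

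Ighv11-2 had the most counts in 8 of 10 libraries. Its product, known as VH11, is in mice the heavy chain of many antibodies of B-1a cells against phosphatidylcholine, a lipid of cell membranes. It had 2046, 1780, 2364, 1935 and 4525 counts in the EGF libraries, or 19.2%, 31.3%, 18.2%, 28.8% and 58.4% of their Ighv counts. In the Saline libraries it had 6515, 3120, 1764, 803 and 1463 counts, or 29.3%, 23.9%, 19.2%, 6.22% and 16.0%. Saline replicate 1 was highest in counts and EGF replicate 5 in share, Saline replicate 4 was lowest in both, and the groups overlapped. In CPM, Ighv11-2 averaged 330 ± 149 with EGF and 352 ± 296 with Saline (SD, n = 5 each), and 267 ± 55.7 (SD, n = 4) with EGF without replicate 5. Its log2 fold change of EGF over Saline was -0.05 (SE 0.50, edgeR adjusted p = 0.974).

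The exceptions were 1 library of each group. In EGF replicate 3 the leading gene was Ighv5-4, with 3177 counts or 24.4% of Ighv counts (95% exact binomial interval 23.7 to 25.2), ahead of Ighv11-2. In Saline replicate 4 it was Ighv5-16, with 1195 counts or 9.25% (interval 8.76 to 9.77). The share of the leading gene was 19.2%, 31.3%, 24.4%, 28.8% and 58.4% in the EGF libraries, and 29.3%, 23.9%, 19.2%, 9.25% and 16.0% in the Saline libraries. For EGF replicate 5 the interval was 57.3 to 59.5. These intervals are narrow beside the differences between libraries, but they cover counting error only, since reads copied by PCR are not independent molecules.

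Mean shares of the leading gene were 32.4 ± 15.2% with EGF and 19.5 ± 7.64% with Saline (SD, n = 5 each). Without EGF replicate 5 the EGF mean was 25.9 ± 5.28% (SD, n = 4). Ighv11-2 has a long annotated transcript, 461 bases against a median of 354.5 over the members. With counts divided by exonic length, the leading gene was the same in each library, and its share ranged from 15.9% to 53.2% with EGF and from 9.03% to 25.1% with Saline.

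The genes behind the leader differed from library to library. In the EGF libraries the second gene was Ighv5-16 with 996 counts in replicate 1, Ighv1-80 with 227 in replicate 2, Ighv11-2 in replicate 3, Ighv6-6 with 557 in replicate 4 and Ighv4-1 with 587 in replicate 5. In the Saline libraries it was Ighv10-3 with 2323 counts in replicate 1, Ighv1-53 with 931 in replicate 2, Ighv7-1 with 1230 in replicate 3, Ighv1-5 with 1090 in replicate 4 and Ighv6-3 with 1084 in replicate 5. No 2 libraries shared a second gene. The row of Ighv1-5 overlaps a microRNA gene, Mir7094-2, so its reads may be shared. The genes in rank 3 were Ighv1-74, Ighv8-8, Ighv7-1, Ighv1-69 and Ighv5-16 in EGF replicates 1 to 5, and Ighv6-6, Ighv2-3, Ighv1-26, Ighv1-26 and Ighv7-3 in Saline replicates 1 to 5.

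Concentration was summarised by the effective number of genes (the inverse Simpson index), which is the number of equally used genes that would give the same chance that 2 random Ighv counts fall on 1 gene. It was 14.5, 8.85, 9.33, 8.75 and 2.82 genes in the EGF libraries and 8.41, 11.9, 13.0, 23.3 and 14.6 genes in the Saline libraries. The lowest value was that of EGF replicate 5 and the highest that of Saline replicate 4, and Saline replicate 1 lay below 4 of the 5 EGF libraries. The means were 8.84 ± 4.13 with EGF and 14.2 ± 5.55 with Saline (SD, n = 5 each), and 10.3 ± 2.75 (SD, n = 4) with EGF without replicate 5. A majority of 50% of Ighv counts was reached by 6, 7, 4, 4 and 1 genes in the EGF libraries and by 4, 6, 5, 9 and 5 genes in the Saline libraries. With Ighv11-2 left out, the effective number was 20.3, 30.8, 9.03, 16.2 and 12.5 in the EGF libraries and 15.2, 21.3, 16.3, 22.5 and 16.4 in the Saline libraries. Without that gene, the EGF libraries spanned a wider range than the Saline libraries and their means were 17.8 ± 8.42 with EGF and 18.4 ± 3.31 with Saline (SD, n = 5 each). The EGF mean of this number was 19.1 ± 9.10 (SD, n = 4) without replicate 5.

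**Figure D2:**
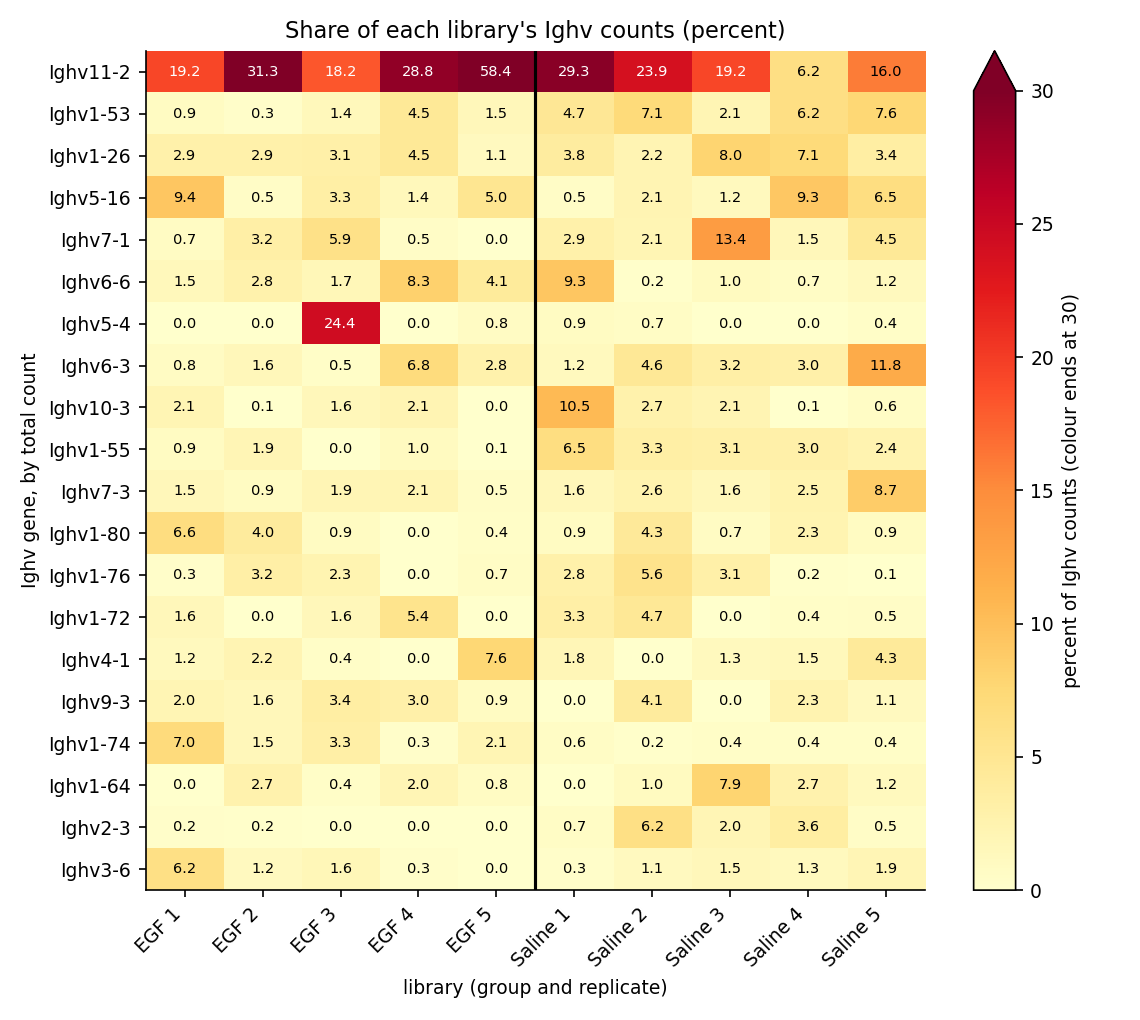
Each cell gives the percentage of a library's Ighv counts on 1 gene, for the 20 genes with the highest total counts (rows) in the 5 EGF libraries and the 5 Saline libraries (columns, parted by the black line). The colour scale ends at 30%. Ighv11-2 is dark in most columns, Ighv5-4 stands out in EGF replicate 3 with 24.4%, and other high values fall on different genes in different libraries.

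Many single genes were high in 1 library and low or absent elsewhere. Ighv5-4 had 0, 0, 3177, 0 and 61 counts in the EGF libraries, against 203, 85, 0, 1 and 34 counts in the Saline libraries. A single library, EGF replicate 3, thus held 89.2% of its counts. Ighv1-5 had 30, 4, 0, 187 and 31 counts in the EGF libraries, against 0, 0, 124, 1090 and 2 counts in the Saline libraries, where replicate 4 stood out. Ighv10-3 had 221, 4, 205, 144 and 1 counts in the EGF libraries, against 2323, 356, 197, 9 and 55 counts in the Saline libraries, where replicate 1 stood out. Ighv6-6 had 161, 160, 217, 557 and 319 counts in the EGF libraries, against 2056, 23, 91, 89 and 113 counts in the Saline libraries. Apart from Saline replicate 1, every Saline library was below every EGF library for this gene.

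Ighv1-69 had 28, 0, 2, 544 and 0 counts in the EGF libraries, against 7, 1, 110, 254 and 131 counts in the Saline libraries. Ighv8-8 had 104, 207, 0, 77 and 0 counts in the EGF libraries, against 43, 32, 22, 438 and 122 counts in the Saline libraries. Both genes overlapped between groups, and each had libraries at 0 with EGF only. A count of 0 allows up to 3 counts, or 0.358 CPM in the largest and 0.441 CPM in the smallest library. Of the 94 members, 35 had over 50% of their counts in 1 library, and so did 21 of the 74 members with a total of 100 or more.

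Other genes were used widely. A count in all 10 libraries was found for 13 members, which held 56.6% of the 110290 Ighv counts, and 10 or more counts in all 10 libraries for 8 members, which held 46.2%. Highest among them by total were Ighv11-2, Ighv1-53, Ighv1-26, Ighv5-16 and Ighv6-6. Ighv1-26 was the most even of these, with 21% of its counts in its highest library. It had 309, 166, 400, 303 and 86 counts in the EGF libraries, against 851, 287, 730, 915 and 313 counts in the Saline libraries. Ighv5-16 had 28.2% of its counts in its highest library, with 996, 30, 433, 96 and 391 counts in the EGF libraries, against 114, 280, 109, 1195 and 596 counts in the Saline libraries. Only 8 members had counts in a single library, and they held 0.195% of Ighv counts.

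A count in both groups was found for 78 members with 98.6% of the counts. The 6 members seen only in EGF libraries held 0.278% of Ighv counts and the 10 seen only in Saline libraries 1.10%. The most counted of these, named here after their values were seen, were Ighv5-15, with 140 counts in EGF libraries of which 108 were in replicate 2, and Ighv1-39. Ighv1-39 had 0 counts in all EGF libraries, against 97, 146, 1, 55 and 0 counts in the Saline libraries. It did not pass edgeR's filter, and DESeq2 gave it an adjusted p of 0.124.

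Sharing between 2 libraries was measured as the overlap of usage, the sum over genes of the smaller of the 2 shares, which is 100% for identical usage. Over all 45 pairs it ranged from 27.3% to 62.7% with a mean of 46.7%. The median was 46.2% over the 10 pairs of EGF libraries, 50.1% over the 10 pairs of Saline libraries and 46.1% over the 25 pairs of an EGF and a Saline library. The Saline pairs thus had the highest median, and the highest single value, 62.7%, joined EGF replicate 4 and Saline replicate 1. The lowest, 27.3%, joined EGF replicate 5 and Saline replicate 4. Without Ighv11-2 the medians were 35.8% among EGF libraries, 44.5% among Saline libraries and 38.3% across groups. Counting genes with 5 or more counts, those shared by both libraries of a pair made up a median of 44.7% of the genes found in either for EGF pairs, 52.2% for Saline pairs and 47.5% across groups. The pairs share libraries and are not independent, so no test was made.

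**Figure D3:**
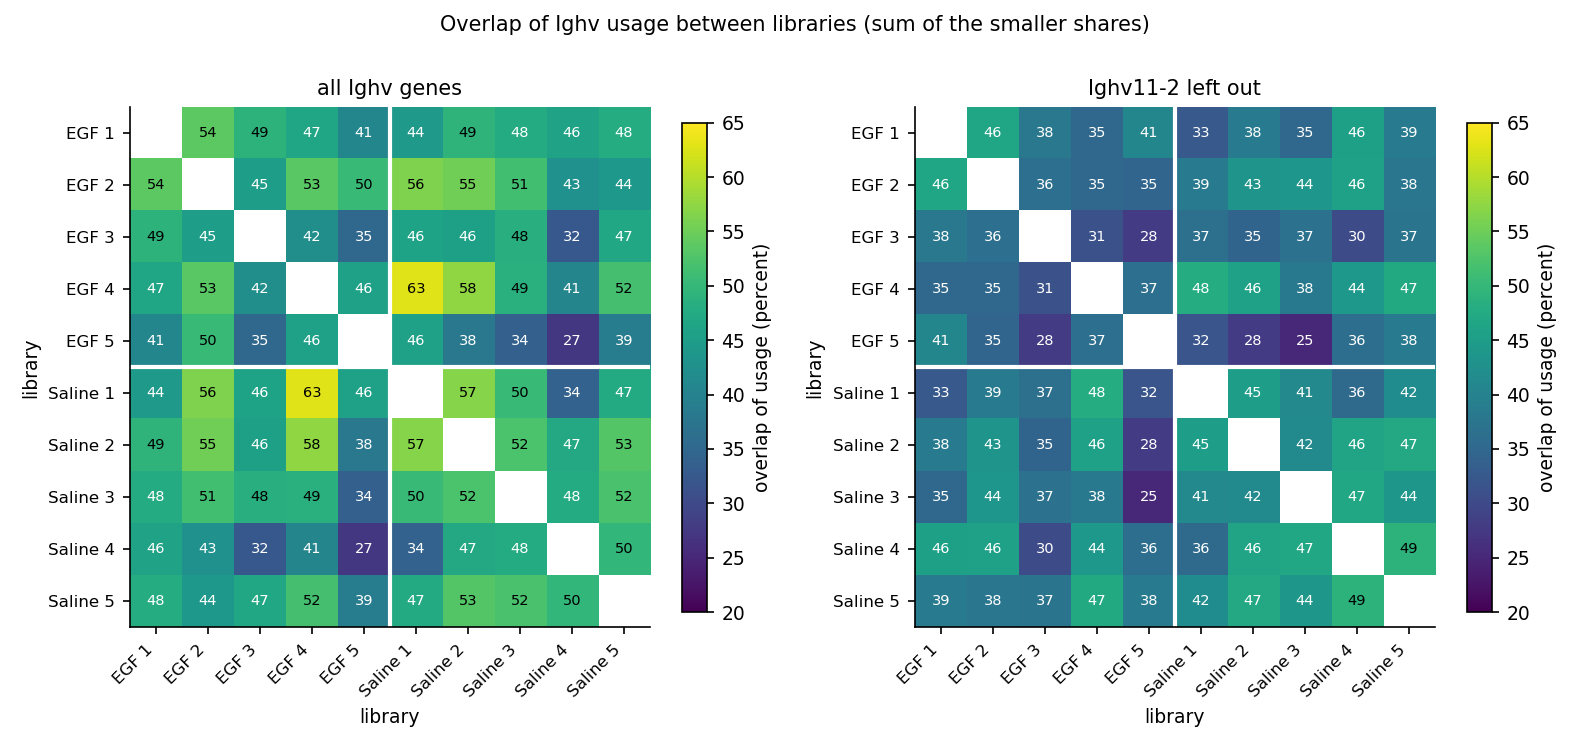
Each cell gives the overlap of Ighv usage (percent) between the library of its row and that of its column, with EGF libraries before Saline libraries and white lines between the groups. The left panel uses all members and the right panel leaves out Ighv11-2. The medians are 46.2% (EGF pairs), 50.1% (Saline pairs) and 46.1% (across) in the left panel, and 35.8%, 44.5% and 38.3% in the right panel.

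By family, Ighv1, the largest, held 36.1% of all Ighv counts on 47 members of 53 rows. It took 40.0%, 35.0%, 24.7%, 38.4% and 15.8% of Ighv counts in the EGF libraries, and 31.9%, 39.6%, 44.3%, 56.4% and 31.9% in the Saline libraries. In CPM it averaged 348 ± 158 with EGF and 683 ± 251 with Saline (SD, n = 5 each), with an EGF range of 157 to 542 CPM and a Saline range of 382 to 946 CPM. The EGF mean was 395 ± 135 CPM (SD, n = 4) without replicate 5, which had the lowest Ighv1 share. Family Ighv11, of 2 rows, held 23.9% of the counts, nearly all on Ighv11-2. Ighv5 held 9.63%, from 3.98% to 32.7% in the EGF libraries and from 3.0% to 11.7% in the Saline libraries, with the highest value in EGF replicate 3 on account of Ighv5-4.

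Ighv6 held 6.64%, Ighv7 6.09% and Ighv10 4.67% of all Ighv counts. Ighv7-1, which in mice encodes the heavy chain of the T15 type of antibody against phosphorylcholine, had 76, 181, 767, 35 and 0 counts in the EGF libraries, against 647, 271, 1230, 198 and 414 counts in the Saline libraries. EGF replicate 3 lay above 4 of the 5 Saline libraries, and the other EGF libraries below all of them. Ighv9, Ighv2, Ighv3, Ighv4, Ighv8 and Ighv14 each held between 1.19% and 2.85%. Ighv4-1, the single gene of its family, had 130, 124, 57, 0 and 587 counts in the EGF libraries, against 403, 1, 118, 194 and 395 counts in the Saline libraries. Ighv13 held 0.659%, with 385 of its 727 counts in EGF replicate 3 and 335 in Saline replicate 1.

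Ighv12-3, the single gene of family Ighv12 and in mice also known for antibodies against phosphatidylcholine, had 12, 12, 0, 0 and 0 counts in the EGF libraries, against 32, 0, 0, 45 and 0 counts in the Saline libraries. It stayed far below Ighv11-2, with 0.0916% of all Ighv counts. Ighv15 had 2 counts, and the 1 row of Ighv16 had 0. No family's CPM separated the groups.

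Position in the locus bears on usage in developing B cells, in which genes near the joining genes are known to be joined early. The 111 rows were divided by distance from the joining genes into 3 sets of 37 rows. The nearest set, from 149 to 824 kb, held a mean of 54.6 ± 15.6% of Ighv counts with EGF and 42.7 ± 5.48% with Saline (SD, n = 5 each), and its highest value, 76.4%, was that of EGF replicate 5. Without that library the EGF mean was 49.1 ± 11.2% (SD, n = 4). The middle set, from 833 to 1594 kb, held 21.2 ± 7.83% with EGF and 30.9 ± 5.51% with Saline, and 24.1 ± 4.87% (SD, n = 4) with EGF without replicate 5. The farthest set, from 1625 to 2570 kb, held 24.2 ± 8.88% with EGF and 26.4 ± 3.71% with Saline, and 26.7 ± 7.98% (SD, n = 4) with EGF without replicate 5.

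Ighv11-2, 618 kb from the joining genes, lies in the nearest set. With Ighv11-2 left out, that set held 34.3 ± 15.8% with EGF and 29.0 ± 7.66% with Saline (SD, n = 5 each), a difference smaller than the SD of either group. The middle set then held 30.2 ± 7.57% with EGF and 38.2 ± 6.36% with Saline, a difference larger than the SD of either group. The farthest set held 35.6 ± 10.4% with EGF and 32.9 ± 5.96% with Saline. Without EGF replicate 5 as well, the EGF means of the 3 sets, from nearest to farthest, were 32.0 ± 17.3%, 32.1 ± 7.21% and 35.9 ± 11.9% (SD, n = 4). Ighv5-2, the row nearest to the joining genes and named here for its position, had a total of 11 counts, 6 of them in Saline replicate 1.

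**Figure D4:**
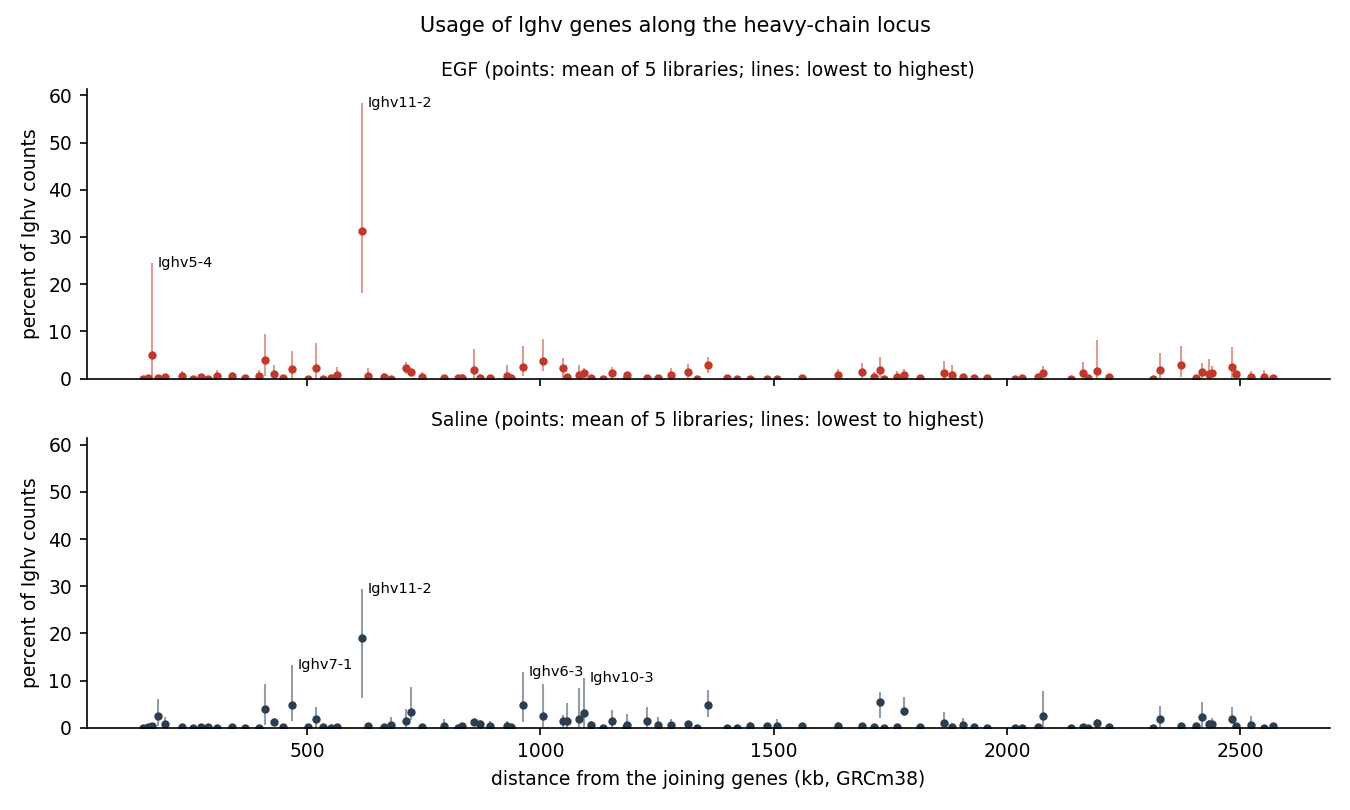
Each point is the mean percentage of Ighv counts of 1 member over 5 libraries, and each line runs from the lowest to the highest library, for EGF (top) and Saline (bottom). The horizontal axis is the distance from the joining genes in kb. Ighv11-2 is the highest point in both groups, at 31.2% with EGF and 18.9% with Saline, and members with counts are spread over the whole locus.

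EGF was compared with Saline gene by gene with edgeR's quasi-likelihood test on all genes that passed its filter on low counts, 12874 in all and 51 of the 94 members. None of the 51 passed at an adjusted p of 0.05 in either direction. Over all tested genes the test called 0 lower (0.0%) and 1 higher (0.00777%). At an unadjusted p under 0.05, 9 members were lower, beside 352 of all tested genes (2.73%), and 1 was higher, beside 790 (6.14%). With EGF replicate 5 left out these counts were 11 of 56 tested members lower, beside 968 of 13104 genes (7.39%), and 2 members higher, beside 1098 genes (8.38%). The members' median log2 fold change was -0.56, with 16 above and 35 below 0, against -0.01 over all tested genes, with 6247 above and 6627 below 0. The members' median moved with single libraries, to -0.28 without Saline replicate 4, -0.30 without Saline replicate 1, -0.84 without EGF replicate 1 and -0.99 without EGF replicate 3. It was -0.50 without EGF replicate 5 and stayed below 0 whichever library was left out. A member with counts in few libraries passes the filter only where it is high, so these figures describe the tested members and not all 94.

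The 2 groups did not overlap for 3 of the 51 tested members, all of them lower with EGF, and 0 members were higher in this way. Among all tested genes, the groups were separate in this way for 231 genes lower with EGF (1.79%) and for 160 genes higher (1.24%). The 3 members were Ighv1-75, Ighv2-3 and Ighv1-55. Ighv1-75 and Ighv2-3, low with EGF, passed the filter through their Saline counts. A member low in 1 group is tested only if it is high in the other, which favours such separation. The count of 3 is thus a description and no support for a difference. Whether the sum of the Ighv genes bore on the 3 members was not tested. Their shares of Ighv counts are given beside their counts. The shares rest on the same counts by which the genes were picked, so they add no separate support.

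Ighv1-75 had 8, 1, 0, 0 and 0 counts in the EGF libraries, against 119, 58, 56, 27 and 57 counts in the Saline libraries. It made up at most 0.0753% of Ighv counts in the EGF libraries and at least 0.209% in the Saline libraries. In CPM it averaged 0.229 ± 0.446 with EGF and 8.14 ± 4.38 with Saline (SD, n = 5 each). The log2 fold change was -5.04 (SE 0.94), and the edgeR adjusted p was 0.402.

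Ighv2-3 had 26, 10, 0, 3 and 0 counts in the EGF libraries, against 148, 810, 180, 461 and 45 counts in the Saline libraries. It ranked 3 among the Ighv genes of Saline replicate 2. It held at most 0.245% of Ighv counts in the EGF libraries and at least 0.492% in the Saline libraries. The log2 fold change was -5.39 (SE 1.05, edgeR adjusted p = 0.402). Its nearest relative, Ighv2-9, differed at 14 of 301 aligned bases of the V exon and had 189 counts in all.

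Ighv1-55 had 91, 110, 2, 70 and 9 counts in the EGF libraries, against 1442, 434, 288, 383 and 222 counts in the Saline libraries. The highest Saline value, in replicate 1, was well above the other Saline libraries. It held at most 1.93% of Ighv counts in the EGF libraries and at least 2.43% in the Saline libraries. The log2 fold change was -3.31 (SE 0.80, edgeR adjusted p = 0.552).

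Ighv1-53 had 92, 15, 186, 301 and 119 counts in the EGF libraries, against 1045, 931, 191, 807 and 691 counts in the Saline libraries. All but Saline replicate 3 lay above every EGF library. The log2 fold change was -2.37 (SE 0.62, edgeR adjusted p = 0.552). For Ighv1-26, whose counts are given above, it was -1.27 (SE 0.44, edgeR adjusted p = 0.552).

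In the other direction the smallest unadjusted p was that of Ighv1-74, with 744, 88, 424, 21 and 159 counts in the EGF libraries, against 144, 24, 41, 47 and 39 counts in the Saline libraries. EGF replicate 4 was the lowest of all 10 libraries, so the groups overlapped. The log2 fold change was 2.33 (SE 0.82, edgeR adjusted p = 0.552). Ighv5-4, high in EGF replicate 3 alone, had a log2 fold change of 3.47 (SE 1.95, edgeR adjusted p = 0.578), and of -1.97 (edgeR adjusted p = 0.698) without that library.

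Next in the higher direction came Ighv1-50, with 128, 184, 33, 3 and 183 counts in the EGF libraries, against 0, 0, 79, 85 and 0 counts in the Saline libraries. Ighv5-12 had 0, 42, 54, 45 and 12 counts in the EGF libraries, against 0, 28, 0, 0 and 27 counts in the Saline libraries. Ighv8-12 had 54, 0, 23, 0 and 62 counts in the EGF libraries, against 0, 43, 0, 13 and 0 counts in the Saline libraries. These 3 genes had log2 fold changes of 1.75, 1.47 and 1.35 and edgeR adjusted p-values of 0.662, 0.694 and 0.753.

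**Figure D5:**
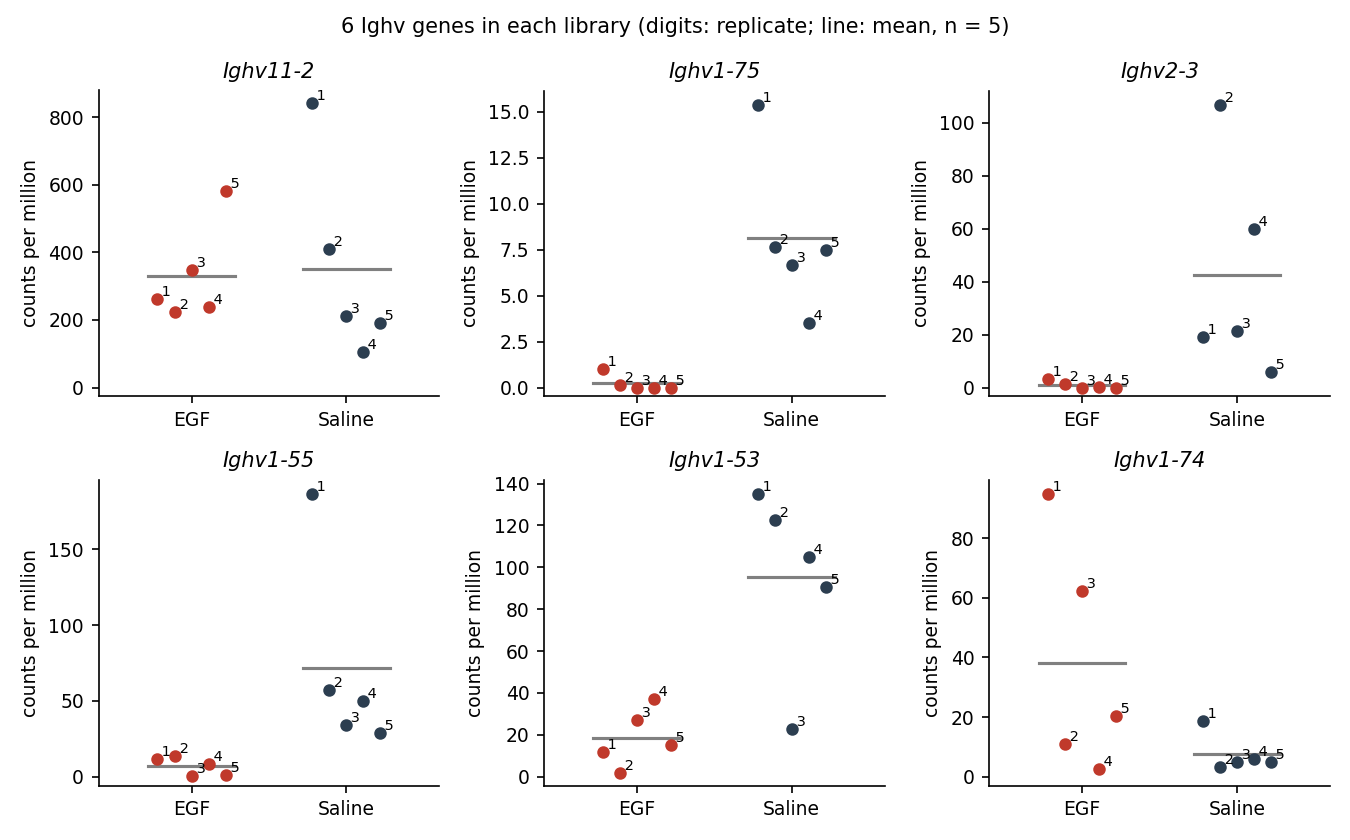
Each panel gives the CPM of 1 Ighv gene in each library, with the replicate number beside the point and a grey line at the group mean (n = 5); EGF libraries are red and Saline libraries dark blue. The vertical axes differ between panels. The groups are separate for Ighv1-75, Ighv2-3 and Ighv1-55, and overlap for Ighv11-2, Ighv1-53 and Ighv1-74.

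The call on Ighv1-75 depended on the tool and on single libraries. DESeq2 called 15 of 16755 genes lower (0.0895%), and 4 of them were members, namely Ighv1-75 (adjusted p = 1.2e-06), Ighv2-3 (adjusted p = 0.0158), Ighv1-53 (adjusted p = 0.0406) and Ighv1-42 (adjusted p = 5.1e-10). The last, named after its values were seen and with too few counts for edgeR's filter, had 0 counts in all EGF libraries, against 52, 231, 0, 0 and 0 counts in the Saline libraries, so its call rests on 2 libraries. Limma-voom with quality weights called 4 of 12874 genes lower (0.0311%), of which Ighv1-75 was 1 (adjusted p = 0.0238). Without EGF replicate 5, edgeR called 4 of 13104 genes lower (0.0305%), again with Ighv1-75 (adjusted p = 0.0274). Without EGF replicate 1, in which Ighv1-75 had most of its EGF counts, edgeR called 1 of 13053 genes lower (0.00766%), and that gene was Ighv1-75 (adjusted p = 0.0356). Without any other single library edgeR called no member.

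The other immunoglobulin genes are set beside the Ighv values as a description. The heavy-chain constant genes summed to 3641, 2012, 4183, 1745 and 726 CPM in the EGF libraries, and to 6459, 3535, 2942, 5959 and 3156 CPM in the Saline libraries. Of 4 tested constant genes all had a log2 fold change below 0, and 0 passed edgeR's test. Most of the sum was Ighm, of the IgM class, and Igha, of the IgA class. Ighm had 3960 to 20829 counts with EGF and 14267 to 39145 with Saline. Igha had 1371 to 10615 counts with EGF and 5316 to 16170 with Saline. Both were lowest in EGF replicate 5, and the other EGF libraries had 8608 or more Ighm counts and 2784 or more Igha counts. Ighd, of the IgD class carried by mature naive B cells, had at most 15 counts in any library. The light-chain variable genes summed to 1663, 980, 2005, 1035 and 496 CPM in the EGF libraries, and to 3038, 1956, 1387, 2635 and 1434 CPM in the Saline libraries.

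In 9 libraries the Ighv counts came to between 0.281 and 0.487 of the heavy-chain constant counts. In EGF replicate 5 the ratio was 1.37. The ratio of heavy-chain to light-chain variable counts was likewise 2.01 in that library and between 0.636 and 0.954 in the others. EGF replicate 5 thus had fewer constant and light-chain counts beside its Ighv counts than any other library, and the part of this in its Ighv11-2 share was not tested.

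In mice the VH11 heavy chain is known to pair with the light chain of Igkv14-126, a gene named here after its values were seen. Igkv14-126 made up 19.7%, 30.6%, 18.2%, 21% and 33.5% of light-chain variable counts in the EGF libraries, and 33.9%, 27.9%, 18.8%, 5.16% and 15.6% in the Saline libraries. Set beside the Ighv11-2 shares, the values were within 5 percentage points in 8 libraries, and the difference (light-chain share minus Ighv11-2 share) was -7.82 points in EGF replicate 4 and -24.9 points in EGF replicate 5. Igkv14-126 was the leading light-chain gene in the same 8 libraries in which Ighv11-2 led. In EGF replicate 3 the leading light-chain gene was Igkv14-111 (23.6%) and in Saline replicate 4 Igkv19-93 (16.2%). The pairing of chains within cells cannot be read from bulk counts.

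Markers of the cell types that could carry Ighv transcripts were summed as well. The 15 plasma cell genes summed to 557 to 1323 CPM with EGF and 1020 to 1897 CPM with Saline. The lowest sum was that of EGF replicate 5, and the other EGF libraries had 737 CPM or more. The sums averaged 906 CPM with EGF and 1379 CPM with Saline. Jchain alone averaged 470 CPM with EGF and 896 CPM with Saline, the largest part of each. Of the 15 genes, 13 had a log2 fold change below 0 and 0 passed edgeR's test. Jchain, which joins IgM and IgA into polymers and is made in plasma cells, had 5592, 3032, 5498, 2931 and 695 counts in the EGF libraries, against 10405, 6438, 4909, 8528 and 4502 counts in the Saline libraries. Its log2 fold change was -0.95 (SE 0.46, edgeR adjusted p = 0.552). Counts of the other genes of this list varied widely. Xbp1 had 577 to 673 counts in EGF replicates 1 to 4, 434 in EGF replicate 5 and 629 to 906 with Saline. Sec11c had 859 to 1015 counts in EGF replicates 1 to 4, 1454 in EGF replicate 5 and 827 to 1043 with Saline. Tnfrsf17, a survival receptor of plasma cells, had 3 to 25 in EGF replicates 1 to 4, 0 in EGF replicate 5 and 10 to 29 with Saline. Mzb1, an endoplasmic reticulum protein of antibody-making cells, had 4 to 38 in EGF replicates 1 to 4. It had 41 in EGF replicate 5 and 10 to 19 with Saline. Mzb1 and Sec11c were the 2 genes of the list with a log2 fold change above 0. The part of plasma cell content in the Ighv values was not tested.

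Among genes of earlier B cell stages, several had few counts and others did not. Vpreb1, part of the surrogate light chain of B progenitors, had 0 to 4 counts in the EGF libraries and 2 to 3 in the Saline libraries. Igll1, the other part, had 0 to 7 counts with EGF and 0 to 5 with Saline. Cd79b, a signalling chain of the B cell receptor, had 76 to 91 counts in EGF replicates 1 to 4. It had 217 in EGF replicate 5 and 66 to 116 with Saline. Rag1, part of the enzyme that cuts DNA in V(D)J recombination, had 19 to 58 counts in EGF replicates 1 to 4. It had 65 in EGF replicate 5 and 23 to 39 with Saline. Il7r, the receptor for interleukin 7 on lymphoid progenitors, had 36 to 105 counts in EGF replicates 1 to 4. It had 2 in EGF replicate 5 and 59 to 97 with Saline. The 11 mature B cell genes summed to 25.8 to 75.2 CPM with EGF and 56.3 to 71.1 CPM with Saline. The lowest value was that of EGF replicate 5, and EGF replicates 1 to 4 had 59.3 to 75.2 CPM. Most of that sum was Cd37, with a mean of 47.8 CPM with EGF and 51.9 CPM with Saline. The 15 B progenitor genes summed to 324 to 642 CPM with EGF and 480 to 704 CPM with Saline. The EGF minimum was in replicate 5, and the other EGF libraries had 412 CPM or more. Most of this sum came from Cd24a and from Dntt, which lymphoid progenitors express too. Dntt averaged 228 CPM with EGF and 263 CPM with Saline, and Cd24a 212 CPM with EGF and 268 CPM with Saline. Of 9 tested B progenitor genes, 3 had a log2 fold change above 0 and 6 below, and 0 passed edgeR's test; their part in the Ighv values was not tested. Kit, the stem and progenitor marker, had 3134 to 4034 counts with EGF and 3008 to 3529 with Saline and was thus counted in every library. The 12 V(D)J recombination genes summed to 1652 to 2368 CPM with EGF and 1614 to 1869 CPM with Saline. The highest sum was that of EGF replicate 5, and EGF replicates 1 to 4 had 1652 to 1855 CPM. Most of that sum came from Hmgb1 and Hmgb2. Hmgb1 averaged 659 CPM with EGF and 646 CPM with Saline, and Hmgb2 706 CPM with EGF and 630 CPM with Saline. Rag1 averaged only 5.03 CPM with EGF and 3.54 CPM with Saline. Rag2 had 21 to 36 counts in EGF replicates 1 to 4, 0 in EGF replicate 5 and 16 to 45 with Saline.

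The sum of the neutrophil genes also had a lower mean with EGF. The 10 neutrophil genes summed to 1785 to 2688 CPM with EGF and 1687 to 5566 CPM with Saline, averaging 2303 ± 407 CPM in the EGF libraries and 3606 ± 1412 CPM in the Saline libraries (SD, n = 5 each). The groups overlapped, since Saline replicate 1, which was highest in Ighv CPM, was lowest in this sum. Most of the sum was Mpo, with a mean of 1837 CPM with EGF and 2827 CPM with Saline. Of 9 tested neutrophil genes, 4 had a log2 fold change above 0 and 5 below, and 0 passed edgeR's test. The 4 above 0 were S100a9 (0.26), Ngp (0.28), Camp (0.19) and Ltf (0.74), each with its highest count in EGF replicate 5. The 5 below 0 were Mpo, Elane, Prtn3, Ctsg and S100a8. Prtn3, a protease of neutrophil granules and their precursors, had a log2 fold change of -1.11 (SE 0.27, edgeR adjusted p = 0.552). The part of these cells in the Ighv values was not tested.

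Over the 10 libraries, 8 of 12763 tested genes other than immunoglobulin genes tied for the pattern most like the summed Ighv CPM, at a Spearman rho of 0.915, given as a description of libraries that share their depth and composition. Among them, by order in the files, were Yipf6, Gm44130, Irs2 and Ube2e2. Yipf6, a protein of the Golgi membrane, had 34.5, 27.6, 37.5, 27.5 and 6.17 CPM in the EGF libraries, against 39.1, 37.6, 30.3, 32.7 and 28.6 CPM in the Saline libraries.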

How the data were processed

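RNA was extracted with a micro-scale kit and libraries were made after removal of ribosomal RNA, per the labels' protocols. The authors deposited raw counts per gene, 1 file per library; base calling with bcl2fastq 2.17, alignment with STAR and the builds GRCm38 and mm10 are named in the submitters' processing notes. The counting tool, its strand setting, its treatment of multimapped reads and the annotation release are not stated in the labels or headers. Symbols of 27 rows differ between files, 0 of them Ighv rows. Positions, lengths and sequences come from GENCODE M21, which holds 55394 of the 55573 rows and all 111 Ighv rows.

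From the deposited counts, CPM (counts per 1e6 counts of a library) were computed with library totals of 6805106 to 8370820. EGF was compared with Saline across all genes with edgeR 4.0.16 (filterByExpr, TMM scaling, quasi-likelihood test, Benjamini-Hochberg adjustment, 5 libraries per group). This test gives no SE. The SE printed with its fold changes is the absolute log2 fold change divided by the square root of the test's F statistic. DESeq2 1.42.0, limma 3.58.1, other scalings, no filter, a robust fit, a replicate block and leaving out each library were alternatives. The member rule, gene lists and tests were chosen with earlier results of these data known. Named genes were the 3 highest in each library, the 5 with the smallest p in each direction, and the 5 with the highest totals among those in all 10 libraries. All pairs of libraries differed by more than counting noise (lowest chi-square divided by its degrees of freedom, 5.48). Pseudogene rows were left out of the members.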

Additional observations from a re-analysis of the deposited data

Results flagged for a closer look

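Within the 58 groups of 5 libraries examined for 29 quantities, 14 had a library whose gap to its nearest neighbour exceeded 0.71 of the range. Chance gives about 1 in 20 for quantities chosen without regard to their values; most of these are genes named for being high in a library or for a small p, so that rate does not apply to them. Both ratios that involve other immunoglobulin genes were set apart in EGF replicate 5, at 1.37 for Ighv over heavy-chain constant counts and 2.01 for heavy over light variable counts. Among EGF libraries, single values stood apart for Ighv5-4 (467 CPM) and Ighv7-1 (113 CPM) in replicate 3, for Ighv1-69 (67.1 CPM) and Ighv1-5 (23.1 CPM) in replicate 4, for Ighv4-1 (75.4 CPM) in replicate 5 and for Ighv1-75 (1.02 CPM) in replicate 1. Among Saline libraries they did for Ighv1-74 (18.6 CPM), Ighv6-6 (266 CPM), Ighv10-3 (300.4 CPM) and Ighv1-55 (186 CPM) in replicate 1, and for Ighv8-8 (56.9 CPM) and Ighv1-5 (142 CPM) in replicate 4.

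Rows annotated as Ighv pseudogenes, which are not members, held 0 to 22 counts per library. Of these rows, 2 reached more than 3 counts in an EGF library and more there than in any Saline library. Rows higher with Saline were not looked for. Ighv1-83 had at most 21 counts with EGF and 4 with Saline, and Ighv1-62 at most 7 with EGF and 6 with Saline. These counts are small beside the member totals, at most 0.328% of them.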

How the results depend on the processing

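The number of Ighv genes called, 0 in edgeR's test, was 4 with DESeq2 and 1 with limma-voom with quality weights, and from 0 to 1 with 1 library left out. It stayed at 0 with 2 other scalings, no filter, a robust fit and limma-voom without weights. With a replicate block it was also 0. Same-numbered libraries did not deviate together in expression (correlations of -0.078 to 0.019, and 0 of 5 numbers paired best with their own). The labels do not say whether the numbers pair the libraries, and such correlations cannot exclude it. When counts were summed by family, the EGF minus Saline difference was 0.0916 percentage points for the leading share and -0.278 for the effective number, and the mean overlap between libraries was 68.9%. The last was 39.1% with Ighv11-2 left out, an alternative chosen after seeing the data. The log2 fold change of Ighv5-4 was -0.94 with the replicate block, -0.99 with limma-voom and -1.59 with quality weights, and from -1.97 to 4.55 with 1 library left out. That of Ighv11-2 was 0.21 with the replicate block, 0.18 with limma-voom and 0.12 with quality weights, and from -0.41 to 0.55 with 1 library left out. EGF replicate 3 held most counts of Ighv5-4; the causes of the other changes were not tested. The other 9 genes with a fold change kept their direction in every alternative that gave a value. The members' median log2 fold change, -0.56, was -1.18 with the replicate block, -1.29 with limma-voom, -0.76 with quality weights and -0.70 with DESeq2. The 5 libraries per group and the few counts of many members limit precision, and a p that misses the threshold does not show that the groups were alike.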
